A study of Arabidopsis thaliana with 14 samples.

Results

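HIS1-3 and LEA4-5 are dehydration genes of Arabidopsis thaliana whose transcripts were followed through imbibed seed of the wild type and of a gibberellin-deficient mutant, with and without the smoke compound KAR1. They were found as the probe sets that the array's platform annotation pairs with exactly 1 gene of that name, which gave 1 probe set for each, 2 of the 13513 probe sets with a single gene. HIS1-3 is locus AT2G18050 and LEA4-5 is locus AT5G06760. Both were picked with earlier results of the same arrays known. The measured values that selected them were their own differences. HIS1-3 was chosen by its difference between KAR1 and water in ga1-3 and over both genotypes, and LEA4-5 was chosen by its difference between the genotypes on water. Those differences, and others built mainly on the same arrays, are given as a description, with no p.

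Transcripts were measured on 14 single-colour 3' expression arrays. Every sample was primary dormant seed imbibed for 24 h on agar of 0.8% at 20 C, in white light of 100 uE. The 4 groups were Landsberg erecta wild type on plain water-agar (4 arrays), the same wild type on agar with 1 uM KAR1 (4 arrays), ga1-3 on plain water-agar (3 arrays) and ga1-3 on agar with 1 uM KAR1 (3 arrays). Per the series' design text, wild type seed can germinate under these conditions, while ga1-3 seed cannot germinate and KAR1 does not help it to. The labels name no accession line for ga1-3, so mutation and genetic background cannot be told apart. Wild type has seed batches A, B, C and D and ga1-3 has A, B and C. The water and KAR1 arrays of 1 genotype and letter share their seed. A letter that occurs in both genotypes stands for different seed.

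Linker histones of the H1 family bind the DNA between nucleosomes and help to compact chromatin. HIS1-3 encodes a small H1 variant of plants that is low in most unstressed tissues and is induced by drought and abscisic acid, the hormone of seed dormancy and of water deficit. LEA4-5 encodes a late embryogenesis abundant (LEA) protein of group 4. LEA proteins are very hydrophilic, accumulate in drying seed and in water-stressed leaves, and protect enzymes and membranes as water is lost. The mutant ga1-3 lacks the first enzyme committed to gibberellin synthesis, and gibberellin acts against abscisic acid in the decision to germinate. KAR1 is a butenolide formed when plant matter burns and promotes germination of many dormant seeds.

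The deposited value is a linear intensity per probe set, and differences below are of its log2, KAR1 minus water or ga1-3 minus wild type, with the standard error (SE) of a limma fit over all 14 arrays. A probe set was called where its p, adjusted by Benjamini-Hochberg, was under 0.05 over 22746 probe sets. The median intensity per array ran from 10.5 to 12.7 over all probe sets, and arrays correlated at 0.943 to 0.999. The probe sets for spiked-in transcripts split the arrays into 3 clusters, a number chosen for the split. The clusters rest on these signals alone, and what step of the work they stand for was not tested. Wild type batches A and B form cluster 1 and ga1-3 batches B and C form cluster 3. Genotypes meet only in cluster 2, formed by ga1-3 batch A and by wild type batches C and D. In bulk seed, fewer cells of a type and less RNA per cell cannot be told apart.

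HIS1-3 was lower on KAR1 than on water in every ga1-3 batch and in most wild type batches. On water its intensity in wild type was 2834.7, 1765.1, 1955.7 and 2188.6 in batches A to D. On KAR1 it was 2327.0, 1953.4, 1647.0 and 1714.3 in the same order. The arrays of both wild type groups overlapped, with batch A the highest on either medium.

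In ga1-3 on water HIS1-3 stood at 2264.8, 1453.2 and 1634.5 in batches A to C, within or just below the wild type range. In ga1-3 on KAR1 it stood at 946.3, 1002.5 and 1066.5. These 3 arrays were the lowest of the 14 and overlapped no other group. The gap to the nearest array was 0.45 (log2) for ga1-3 on water, 0.63 for wild type on KAR1 and 0.73 for wild type on water. Of all probe sets tested, 2.72% were lower on KAR1 with no overlap in ga1-3, and that contrast chose HIS1-3, so its place among them is no result.

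As mean log2 intensity, HIS1-3 was ordered from wild type on water, 11.07 ± 0.29 (SD, n = 4), through wild type on KAR1, 10.89 ± 0.23 (SD, n = 4), and ga1-3 on water, 10.78 ± 0.33 (SD, n = 3), to ga1-3 on KAR1, 9.97 ± 0.09 (SD, n = 3). The neighbours among the first 3 groups lay within 1 SD of each other. The last group was the only one set apart, and its spread was the smallest.

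**Figure D1:**
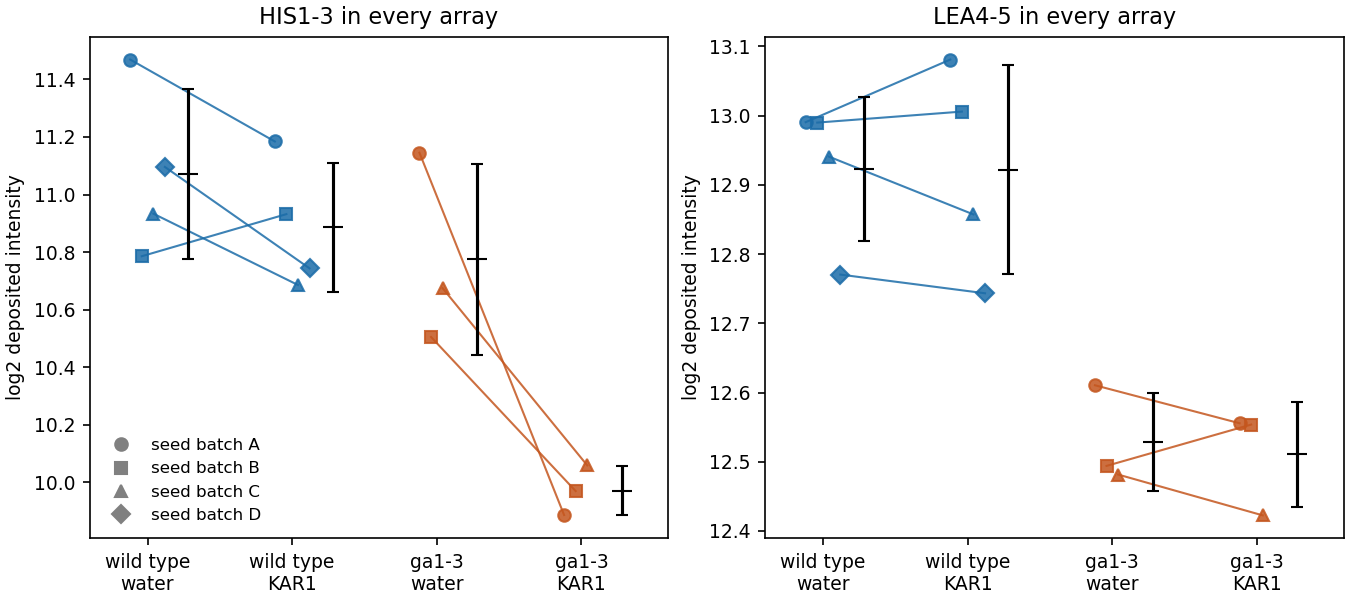
Log2 deposited intensity of HIS1-3 (left) and LEA4-5 (right) on each of the 14 arrays, by group; lines join the water and KAR1 arrays of a seed batch, and black bars give the group mean and SD. HIS1-3 is apart in ga1-3 on KAR1 (mean 9.97), while LEA4-5 is lower in both ga1-3 groups (12.53 and 12.51) than in both wild type groups (12.92 and 12.92). The 2 vertical axes have different ranges and do not start at 0.

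Within seed batches, the KAR1 minus water difference of HIS1-3 in wild type was -0.29, 0.15, -0.25 and -0.35 (log2) in A to D, so 3 of 4 batches were lower and batch B was higher. In ga1-3 it was -1.26, -0.54 and -0.62 in A to C. As percent of the water array's intensity these are changes of -17.9, 10.7, -15.8 and -21.7 in wild type and of -58.2, -31.0 and -34.8 in ga1-3. Every ga1-3 batch was further down than every wild type batch.

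The fitted difference of HIS1-3 was -0.19 ± 0.17 (SE) in wild type and -0.80 ± 0.20 in ga1-3, where the mean was 1.75-fold lower on KAR1. The mean over both genotypes was -0.49 ± 0.13 and the difference between the genotypes' effects was -0.62 ± 0.26. None of these is tested here, since they or arrays they use chose the gene. Batch A of ga1-3 carried the largest difference because its water array was the highest of the 3 and its KAR1 array the lowest. Without both arrays of that batch the ga1-3 difference was -0.58 and the difference between the genotypes' effects was -0.39 ± 0.27. The latter was also -0.39 with array weights. Over all probe sets, calls made up 0% for KAR1 in wild type, 0% for KAR1 in ga1-3, 0.022% for the mean over both genotypes and 0% for the difference between the effects. At an unadjusted p under 0.05, limma counted 462, 456, 681 and 116 probe sets in these contrasts.

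LEA4-5 held nearly the same level on both media. In wild type its intensity on water was 8138.8, 8135.3, 7863.2 and 6986.7 in batches A to D. On KAR1 it was 8665.8, 8225.3, 7420.6 and 6857.4. Batch D was the lowest of the 4 on both media, and the wild type groups overlapped over most of their range.

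In ga1-3 LEA4-5 stood at 6253.9, 5768.6 and 5718.7 on water in batches A to C. On KAR1 it stood at 6020.2, 6012.3 and 5489.6. All 6 ga1-3 arrays lay below all 8 wild type arrays, and within ga1-3 the media overlapped. Of all probe sets, 21.7% were lower in ga1-3 with no overlap on water and 24.5% on KAR1. The genotype difference on water chose LEA4-5, so its place among them is no result.

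The KAR1 minus water difference of LEA4-5 was 0.09, 0.02, -0.08 and -0.03 (log2) in the wild type batches in letter order and -0.06, 0.06 and -0.06 in those of ga1-3. It was lower in 4 of 7 batches. The fitted difference was 0.00 ± 0.08 (SE) in wild type and -0.02 ± 0.09 in ga1-3. These have no p, since each uses water arrays of the genotype difference that chose LEA4-5. Averaged over both genotypes it was -0.01 ± 0.06, with a 95% interval of -0.14 to 0.13. The average has no p either, since it also uses those water arrays. It takes both genotypes with the same sign, where the choosing difference took them with opposite signs. The genotypes have unequal numbers of water arrays, so this does not make the average independent of the choosing difference.

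The genotypes' KAR1 effects on LEA4-5 differed by -0.02 ± 0.12, which has no p because it contains the genotype difference on water. With the seed batch as a block, the mean effect on LEA4-5 kept its value of -0.01, with an interval of -0.08 to 0.06.

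**Figure D2:**
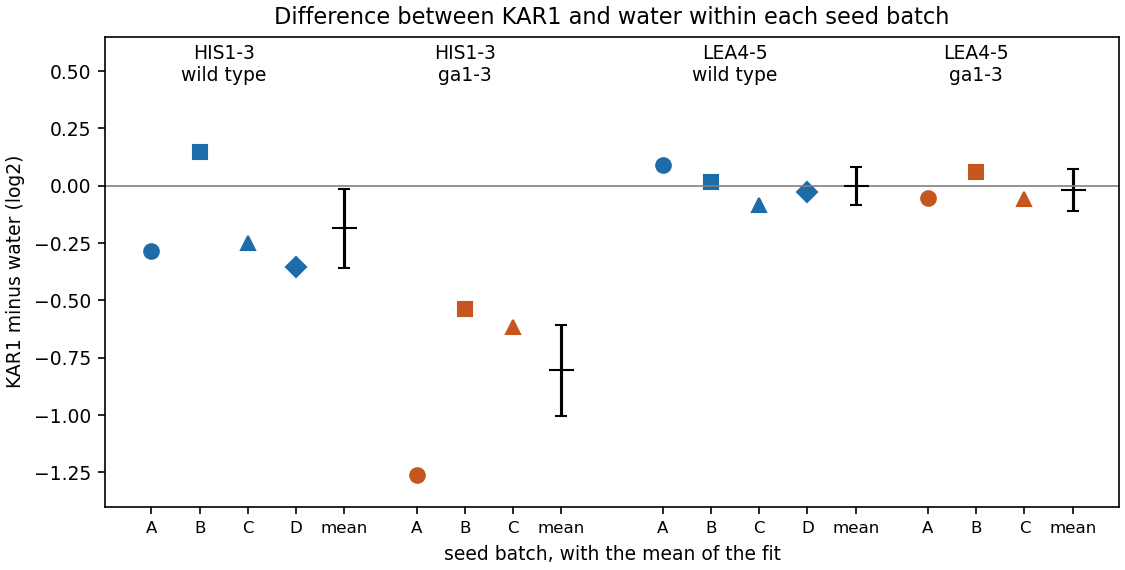
KAR1 minus water (log2) within each of the 7 seed batches for HIS1-3 and LEA4-5, by genotype; the black bar beside each set is the fitted mean with its SE. HIS1-3 lies between -1.26 and -0.54 in ga1-3 and between -0.35 and 0.15 in wild type, and LEA4-5 between -0.08 and 0.09 throughout.

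The genotype comparison asked how gibberellin-deficient seed differed from wild type seed on the same medium. The LEA4-5 arrays of the genotypes were apart on both media, and those of HIS1-3 overlapped on water and were apart on KAR1. On water LEA4-5 differed by -0.39 ± 0.09 (SE), a mean 1.31-fold lower, and this difference chose the gene. On KAR1 it fell by 0.41 ± 0.09, a mean 1.33-fold lower, and the gap between the lowest wild type and the highest ga1-3 array was 0.19. The KAR1 arrays did not enter the choice, but they come from the same seed batches as the water arrays that did. The difference on KAR1 is therefore no independent test of the one on water and has no p. Of all probe sets 18.3% were called lower in ga1-3 on KAR1 and 24.5% were lower with no overlap, so such a difference is common in these seeds.

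Within cluster 2, which has both genotypes, the LEA4-5 difference on KAR1 was -0.25, resting on ga1-3 batch A alone. With the cluster as a block it was also -0.25, with an SE of 0.08. The median difference of the 11281 probe sets with a group mean of 16 or more was 0.16 on water and 0.14 on KAR1, so LEA4-5 was lower still against that median. Actin 3' minus 5' probe signal (log2), a sign of RNA quality, ran from 0.81 to 1.29 in wild type on water and from 0.86 to 1.22 in wild type on KAR1. In ga1-3 it ran from 0.66 to 0.82 on water and from 0.64 to 0.69 on KAR1. The same measure for GAPDH overlapped between the genotypes, at -0.06 to 0.47 in wild type and 0.01 to 0.27 in ga1-3. The part of RNA quality in the LEA4-5 difference was not tested.

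On water HIS1-3 differed by -0.30 ± 0.19 (SE) between ga1-3 and wild type. Here 16.8% of all probe sets were called lower and 19.7% higher, and 21.7% were lower with no overlap between the genotypes, which HIS1-3 was not. It has no p, because the water arrays of both genotypes entered the differences that chose the gene. The value moved with the batches and settings used. It was -0.04 with the cluster as block, 0.13 within cluster 2, -0.48 without ga1-3 batch A and -0.38 with array weights.

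On KAR1 HIS1-3 differed by -0.92 ± 0.19 (SE), a mean 1.89-fold lower in ga1-3. It has no p, because the KAR1 arrays entered those differences too. In cluster 2 alone the difference was -0.83, and with the cluster as block -0.66.

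**Figure D3:**
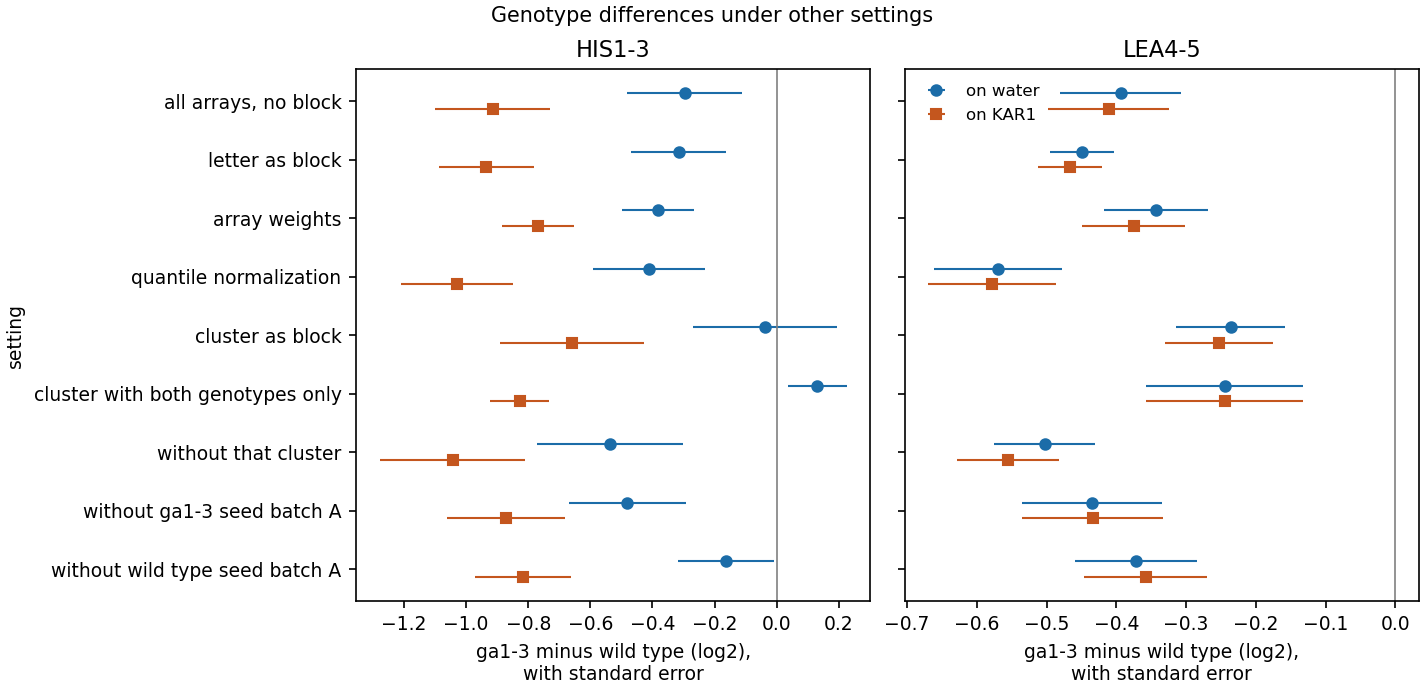
ga1-3 minus wild type (log2, with SE) on water and on KAR1 for HIS1-3 (left) and LEA4-5 (right) under 9 settings of the fit. HIS1-3 on KAR1 and LEA4-5 on both media stay below 0 throughout, while HIS1-3 on water runs from -0.54 to 0.13; the horizontal axes of the 2 panels differ.

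Other genes of a linker histone list were set beside HIS1-3. Of 5 listed, 3 were measured under 1 gene name. H1.1 and H1.2, the main H1 variants of the plant, and HON4, which carries an H1 domain, were all 3 higher in ga1-3 on both media, where 19.7% (water) and 19.3% (KAR1) of all probe sets were called higher. None of the 3 was called for KAR1 in wild type, in ga1-3 or over both, where 0%, 0% and 0.022% of all probe sets were. All 3 had KAR1 minus water differences below 0 in each genotype. With the seed batch as a block 1, 3 and 3 of them reached an unadjusted p under 0.05, and 0 were called.

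HON4 had intensities of 494.4, 704.3, 530.2 and 621.8 in wild type on water and of 1271.2, 2035.8 and 2133.8 in ga1-3 on water. On KAR1 it had 426.1, 584.5, 562.3 and 532.6 in wild type and 1195.2, 1637.6 and 1724.3 in ga1-3. The genotypes did not overlap on either medium. The share of all probe sets that were higher in ga1-3 with no overlap was not counted. In the lower direction it was 21.7% on water and 24.5% on KAR1. HON4 rose by 1.60 ± 0.21 (log2) on water, a mean 3.04-fold higher in ga1-3 (limma, adjusted p = 9.35e-05), and by 1.52 ± 0.21 on KAR1 (adjusted p = 0.000134). With the cluster as block it kept its call on both media, at 1.18 (adjusted p = 0.00192) and 1.096 (adjusted p = 0.00272).

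H1.1 rose by 0.43 ± 0.11 on water (limma, adjusted p = 0.0107) and by 0.31 ± 0.11 on KAR1 (adjusted p = 0.048). H1.2 rose by 0.40 ± 0.13 on water (limma, adjusted p = 0.0322) and by 0.40 ± 0.13 on KAR1 (adjusted p = 0.0305). Both lost their calls with the cluster as block, at adjusted p of 0.209 and 0.534 for H1.1 and of 0.212 and 0.203 for H1.2. Their KAR1 minus water differences over both genotypes were -0.10 for H1.1, -0.17 for H1.2 and -0.20 for HON4, against -0.49 for HIS1-3. Whether HIS1-3 differed from them was not tested.

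Of 40 histone and linker histone genes, 9 were measured: H1.1, H1.2, HON4 and the H2B genes HTB1, HTB2, HTB3, HTB4, HTB5 and HTB11. No H2A, H3 or H4 gene was among the 9. On each medium 4 were higher in ga1-3 (H1.1, H1.2, HON4 and HTB2) and 1 was lower (HTB3). Of all probe sets 19.7% and 16.8% were called higher and lower on water, and 19.3% and 18.3% on KAR1. For KAR1 against water 0 of the 9 passed (limma, 0 also at an unadjusted p under 0.05). Calls over all probe sets made up 0% in wild type, 0% in ga1-3 and 0.022% over both genotypes. With the seed batch as a block 0 passed again. Of all 22746 probe sets 0, 3 and 86 passed in wild type, in ga1-3 and over both genotypes. At an unadjusted p under 0.05 there were 1, 4 and 6 of the 9 histone genes in that order. Among them were 1, 3 and 3 of the 3 genes of the linker histone list. Of all probe sets 1666, 1726 and 2434 reached that unadjusted p. HTB2, a core histone H2B, rose by 0.73 on water (limma, adjusted p = 0.0292) and 0.86 on KAR1 (adjusted p = 0.0126). HTB3, another H2B, fell by 0.44 (adjusted p = 0.0396) and 0.66 (adjusted p = 0.00498). With the cluster as block neither passed, at adjusted p of 0.161 and 0.068 for HTB2 and of 0.27 and 0.0747 for HTB3. HTB4 and HTB11, also H2B genes and among the brightest of the list, had differences of 0.12 and 0.13 on water and passed on neither medium. H2B copies are near identical, so cross-hybridisation between them cannot be separated. The median over the 9 was 0.25 on water and 0.22 on KAR1, beside 0.00 over all probe sets on both media. All 9 had a group mean of 16 or more. Over the 11281 such probe sets the median was 0.16 on water and 0.14 on KAR1. A fit of only those called 3087 higher and 1503 lower on water, and 3112 higher and 1712 lower on KAR1.

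The other LEA and dehydrin genes set LEA4-5 in its family. Of 44 listed, 30 were measured under 1 gene name, LEA4-5 not counted, and 23 of these had a group mean of 16 or more. For KAR1, limma called 0 of 30 in wild type, in ga1-3 and over both genotypes, with 1 of 30 at an unadjusted p under 0.05 in each. Calls over all probe sets made up 0%, 0% and 0.022% in that order. With the seed batch as a block the calls were again 0, with 2, 7 and 7 at an unadjusted p under 0.05, beside 1666, 1726 and 2434 of all 22746 probe sets. The median KAR1 difference over both genotypes was -0.04, with 23 of 30 below 0, beside a median of 0.00 over all probe sets. Over all probe sets with a group mean of 16 or more that median was -0.02.

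Between the genotypes the LEA and dehydrin genes were called in both directions. Of the 30, 8 were higher and 4 lower in ga1-3 on water, where 19.7% and 16.8% of all probe sets were. On KAR1 7 were higher and 5 lower, where 19.3% and 18.3% of all were. Of the 23 with a group mean of 16 or more, 7 were higher and 2 lower on water, and 6 were higher and 2 lower on KAR1. A fit of only the 11281 such probe sets of the array called 3087 higher and 1503 lower on water. On KAR1 that fit called 3112 higher and 1712 lower. The median of the 30 was 0.04 on water and 0.02 on KAR1, against 0.00 over all probe sets. Over the 11281 probe sets with a group mean of 16 or more it was 0.16 and 0.14. With the cluster as block 5 of the 30 were called on each medium, 3 higher and 2 lower. Of all 22746 probe sets that fit called 2111 higher and 2080 lower on water, and 2139 higher and 2363 lower on KAR1.

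The closest relatives of LEA4-5, the group 4 genes LEA4-1 and LEA4-2, had higher probe signals with means of 13.88 and 14.11 (log2), which different probes do not let one rank. LEA4-2 fell by 0.34 ± 0.12 on water (limma, adjusted p = 0.0479) and had a difference of -0.27 on KAR1 (adjusted p = 0.0956). Its difference was -0.03 on water with the cluster as block (adjusted p = 0.864). LEA4-1, which the rule for named genes does not cover and which was added after its values were seen, had -0.07 on water (adjusted p = 0.376) and -0.02 on KAR1 (adjusted p = 0.776). KAR1 minus water over both genotypes was -0.03 for LEA4-1 and -0.04 for LEA4-2, near the -0.01 of LEA4-5.

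AT2G23110 had the largest called fall of the list in ga1-3. Its intensity on water was 8504.7, 5269.2, 5429.7 and 5727.6 in wild type and 4553.6, 3282.2 and 3321.1 in ga1-3. It fell by 0.73 ± 0.22 (log2) on water (limma, adjusted p = 0.0218) and by 0.86 ± 0.22 on KAR1 (adjusted p = 0.0097). With the cluster as block the differences were -0.25 and -0.37 and did not pass (adjusted p = 0.493 and 0.275). AT3G22490 fell by 0.34 ± 0.07 on KAR1 (limma, adjusted p = 0.00183) and kept its call with the block (adjusted p = 0.0496). AT4G13230, AT5G27980 and AT4G38410 were called lower with all group means under 16, AT4G13230 by 0.55 on both media and the other two by 0.04 or less in size.

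AT2G42560, which encodes a LEA domain protein, had the list's largest rise in ga1-3. On water its intensity was 114.9, 1599.2, 1096.3 and 1810.6 in wild type and 5150.3, 9492.0 and 9735.1 in ga1-3. On KAR1 it was 126.9, 929.2, 1223.8 and 1892.6 in wild type and 5609.2, 7956.7 and 9184.6 in ga1-3. Wild type batch A lay far below the other wild type batches on both media, and no arrays of the 2 genotypes overlapped. Such separation was counted over all probe sets only in the lower direction, at 21.7% on water and 24.5% on KAR1. The rise was 3.33 ± 1.02 (log2) on water (limma, adjusted p = 0.024) and 3.36 ± 1.02 on KAR1 (adjusted p = 0.0221), and 1.86 and 1.89 with the cluster as block, where it did not pass (adjusted p = 0.326 and 0.308).

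AT4G21020 rose by 0.55 ± 0.11 on water (limma, adjusted p = 0.00268) and by 0.56 ± 0.11 on KAR1 (adjusted p = 0.0021). With the cluster as block it kept its calls at 0.68 (adjusted p = 0.00473) and 0.70 (adjusted p = 0.00402). AT2G44060 rose by 0.56 and 0.64, and also kept both calls with the block (adjusted p = 0.0229 and 0.0119). AT3G53040 rose by 0.77 on water (adjusted p = 0.0135) and 0.69 on KAR1 (adjusted p = 0.0231). AT3G17520 rose by 0.44 on water (adjusted p = 0.0422) and 0.57 on KAR1 (adjusted p = 0.0127). Neither of these 2 passed with the block. The brightest probe sets of the list were AT3G15670, M10, LEA4-2 and LEA. AT3G15670, M10 and LEA differed by 0.03 to 0.07 on water and passed on neither medium.

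**Figure D4:**
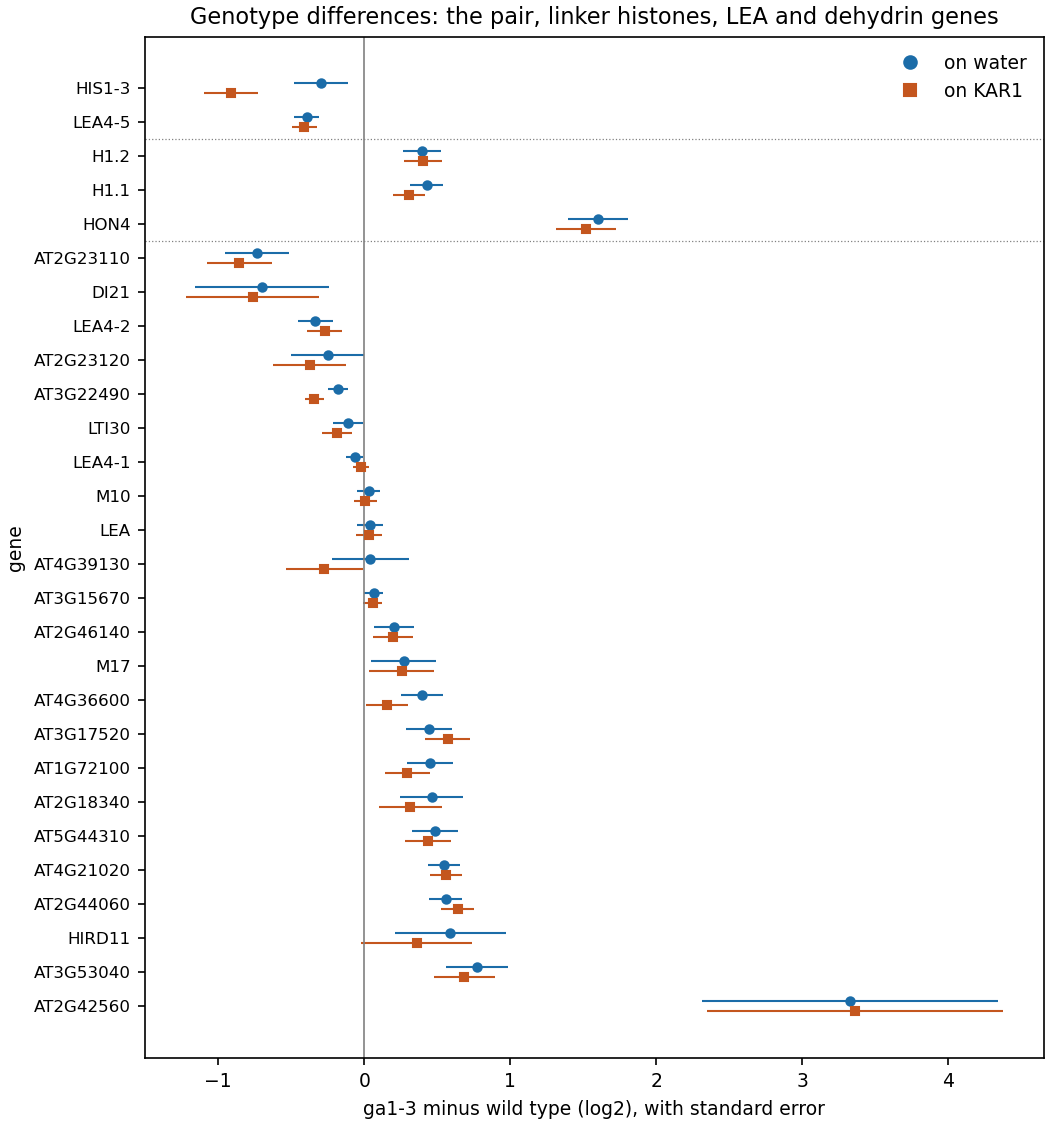
ga1-3 minus wild type (log2, with SE) on water (circles) and on KAR1 (squares) for HIS1-3 and LEA4-5 (top), 3 linker histones (middle) and the 23 LEA and dehydrin genes with a group mean of 16 or more (bottom), ordered within each block by the difference on water. HIS1-3 and LEA4-5 are below 0, the other genes of the linker histone list above it, and the LEA and dehydrin genes lie on both sides, from -0.86 to 3.36.

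Storage and hormone genes gave little to set beside the pair. Of 16 seed storage and oil body genes 3 were measured: the oleosin OLEO3 and the cupins PAP85 and AT2G28490. On KAR1 AT2G28490 was higher in ga1-3 by 0.23 ± 0.08 (limma, adjusted p = 0.0315), OLEO3 had 0.00 and PAP85 -0.05. On water 0 of the 3 passed (limma, with 1 at an unadjusted p under 0.05). Of all probe sets 19.7% and 16.8% were called higher and lower on water, and 19.3% and 18.3% on KAR1. For KAR1 against water 0 of the 3 passed in wild type, in ga1-3 and over both genotypes. Calls over all probe sets made up 0%, 0% and 0.022%. With the seed batch as a block 0 passed again, with 1, 2 and 3 at an unadjusted p under 0.05, all 3 genes below 0. Of all 22746 probe sets 1666, 1726 and 2434 reached that unadjusted p. Of 31 genes of the abscisic acid and drought response 1 was measured, AT4G15430, at intensities of 4.8 to 5.2 on all arrays. None of 38 genes of abscisic acid metabolism and signalling and neither of 2 endosperm markers was measured under 1 gene name, so HIS1-3 and LEA4-5 cannot be set against the hormone's own genes here. The storage genes are the available check on the seed label, with PAP85 at 22843.9 to 26166.1 on all arrays.

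HIS1-3 and LEA4-5 followed each other in part. Over the 14 arrays their log2 intensities correlated at r = 0.695 (Pearson), and at 0.44 after each group's mean was taken off. The arrays share genotype, seed batch and cluster, so this is a description. HIS1-3 was chosen by a KAR1 difference and LEA4-5 by a genotype difference, so how the pair differ in these contrasts was set by the choice.

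The genes whose pattern was most like HIS1-3, by Pearson r over 14 arrays among 6173 probe sets with 1 gene and a group mean of 16 or more, were AT2G35310 (r = 0.949), AT1G32410 (r = 0.923), AT5G38780 (r = 0.921), AT5G02580 (r = 0.916) and AT1G15400 (r = 0.914). AT2G35310 had mean log2 intensities of 6.54 and 6.35 in wild type on water and on KAR1, and of 6.18 and 5.63 in ga1-3. AT5G02580 had the highest correlation of the 5 after group means were taken off, 0.949, and means of 10.63, 10.57, 9.93 and 9.45 in the same order. All 5 were lowest in ga1-3 on KAR1, as likeness to HIS1-3 requires. Their KAR1 differences in ga1-3 ran from -0.55 for AT2G35310 to -0.26 for AT1G15400.

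The genes most like LEA4-5 were AT1G33490 (r = 0.965), AT5G10695 (r = 0.965), AT1G10610 (r = 0.959), AT2G25910 (r = 0.954) and AT5G16980 (r = 0.949). All 5 were lower in ga1-3 on both media, as likeness to LEA4-5 requires. AT1G33490 was the closest in size, with -0.46 on water and -0.53 on KAR1. AT5G16980 had -1.26 and -1.54 and AT1G10610 -1.26 and -1.06, larger differences than those of LEA4-5. AT1G10610 was a dim gene, with mean log2 intensities of 4.519 and 4.243 in wild type on water and on KAR1. Its means in ga1-3, 3.255 and 3.181, lay under the level set for a group mean. How far such low signal limits the size of its difference was not tested. After group means were taken off, the correlations of the 5 genes with LEA4-5 ran from 0.706 for AT5G16980 to 0.837 for AT1G10610.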

How the data were processed

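RNA of 14 seed samples was measured on 3' arrays, per the labels' protocols from 7 ug of total RNA. The deposited intensity, 1 per probe set and array, was made by the authors with GCRMA per the submitters' processing notes. It is linear, has 1 decimal and runs from 3.5 to 39328.1. Array values give no read depth, so the number of arrays limits the precision. Values were taken as log2, with no further normalization, and 64 control probe sets were left out of 22810.

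limma 3.58.1 (R 4.3.3) fitted the means of the 4 groups (10 residual degrees of freedom, eBayes with trend and robust, two-sided), with Benjamini-Hochberg adjustment over 22746 probe sets. The fit was tried on simulated data with independent noise per array and no seed batch or cluster. That trial cannot show how shared seed or clusters affect the p values. Intervals are of 95%. Gene names came from the platform annotation, which gives a single gene for 13513 probe sets, more than 1 for 503 and does not list 8730. Of the single genes, 13436 matched the TAIR10.1 gene table.

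The members and lists were chosen with earlier results of these data known. Tests planned for HIS1-3 between the genotypes were not read. Nor were those for LEA4-5 by KAR1 within each genotype and between the effects. Arrays of those contrasts chose the genes. The test of LEA4-5 by KAR1 over both genotypes is not given, since it uses water arrays that chose the gene. The test planned for LEA4-5 between the genotypes on KAR1 is not given, since its seed batches are those of the water arrays that chose it. Named genes were the pair, 5 genes most like each, and per list the 4 of highest level, up to 4 calls per direction and genotype contrast, every KAR1 call and every linker histone.

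Water and KAR1 arrays of a seed batch share seed per the labels. Over probe sets above the median level their deviations from group means correlated at 0.855, 0.600, 0.507 and 0.688 in wild type and 0.778, 0.610 and 0.557 in ga1-3, in letter order. A block fit on seed batch has 5 residual degrees of freedom. Clusters came from average linkage on 21 spike probe sets. Other settings were array weights, quantile normalization, a floor at 16, clusters as block, the cluster with both genotypes alone or left out, and each array or seed batch A of either genotype left out. No genome or sequence was used here.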

Additional observations from a re-analysis of the deposited data

Results flagged for a closer look

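In 54 groups of 4 arrays of the genes named, 5 had an array far from the rest by Dixon's ratio, which chance gives in about 1 group in 20. M10 in wild type on water had 15528.7 in batch B against 18824.0 to 19393.9 in the others (ratio 0.866). PAP85 in wild type on water had 26165.9 in batch D against 24570.4 to 24813.1 (ratio 0.844). For 3 genes near the lowest intensities the ratio was 1.0 because the other arrays were tied at 1 decimal: AT5G27980 and AT4G38410 in wild type on KAR1, and AT4G15430 in wild type on water at 4.8 against 4.9. Neither HIS1-3 nor LEA4-5 had such an array.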

How the results depend on the processing

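Each array, the first seed batch of each genotype and the cluster with both genotypes were left out in turn, and the block, weights and normalization were varied. In the cluster with both genotypes alone, HIS1-3 had KAR1 differences of -1.26 in ga1-3 and -0.78 over both genotypes, -0.96 between the genotypes' effects, and 0.13 between genotypes on water. LEA4-5 there had genotype differences of -0.25 on water and -0.25 on KAR1 and 0.00 between its KAR1 effects. Leaving that cluster out gave LEA4-5 a genotype difference of -0.50 on water and KAR1 differences of 0.053 in wild type, 0.00 in ga1-3 and 0.027 over both. Without ga1-3 batch A the LEA4-5 values were 0.00 in ga1-3 and 0.001 between effects, and without wild type batch A the latter was 0.013. Array weights gave LEA4-5 0.016 in wild type and HIS1-3 -0.38 between genotypes on water. Quantile normalization moved LEA4-5 on water to -0.57 and the cluster as block to -0.24; that block gave HIS1-3 -0.66 on KAR1. The cause of these shifts was not tested.

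Leaving out single arrays, HIS1-3 ran from -0.28 to -0.05 for KAR1 in wild type, -0.94 to -0.62 in ga1-3, -0.56 to -0.40 over both, -0.75 to -0.43 between effects, -0.48 to -0.16 between genotypes on water and -0.98 to -0.82 on KAR1. LEA4-5 ran from -0.054 to 0.058, -0.042 to 0.026, -0.036 to 0.02, -0.077 to 0.036, -0.45 to -0.37 and -0.47 to -0.36 in that order. LEA and dehydrin calls between genotypes numbered 12 on each medium, 5 and 5 with the cluster as block and 5 and 6 with intensities floored at 16, and 17 and 14 without ga1-3 batch A. Histone calls numbered 5 on each medium, 1 and 1 with the block and 3 and 3 with the floor, and 5 and 5 without ga1-3 batch A. The storage call on KAR1 was 0 under all 3. Over all 22746 probe sets the calls on water and on KAR1 numbered 8301 and 8560. They numbered 4191 and 4502 with the cluster as block, 3154 and 3400 with the floor, and 8921 and 8889 without ga1-3 batch A. With the seed batch as replicate block the paired fit kept the KAR1 value of HIS1-3 in ga1-3 at -0.80 (SE 0.15). That fit kept the mean KAR1 effect on LEA4-5 at -0.01 (SE 0.031). The list of abscisic acid metabolism gave no value, having no measured member.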
